A study of Mus musculus with 12 samples.

Results

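The potassium channel subunit genes of the islet were taken as the transcripts whose name begins with Kcn, apart from 1 such gene and without names that mark a duplicate copy, a pseudogene or an antisense or overlapping transcript. This left 93 genes among the 24078 transcripts listed, in 21 families. Islet RNA of 12 male mice was sequenced, with 1 library for each animal and 4 animals of each genotype. WT animals carried the intact Wfs1 gene, Wfs1HZ animals carried 1 copy of the Wfs1tm1Koks allele and Wfs1KO animals carried it on both chromosomes. All 3 groups were F2 hybrids of 129S6/SvEvTac and C57BL/6 aged 5 to 6 months, and their islets were handpicked and cultured overnight in medium with high glucose. In the Wfs1tm1Koks allele most of exon 8 is exchanged for LacZ and a fusion of the N-terminal part of WFS1 with LacZ is still made, so the allele is not free of WFS1 sequence, and whole islets hold several cell types. Values are RPKM, that is, reads scaled to transcript length and to mapped reads.

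Potassium channels set how far the membrane of an islet cell lies from the level at which calcium channels open. Leak channels hold the membrane at rest, voltage-gated and calcium-activated channels end each action potential, and inward rectifiers gated by G proteins let somatostatin and adrenaline quieten the cell. Some Kcn genes encode the pore itself, some encode silent subunits that reach the membrane only with a pore subunit of another family, and others encode accessory proteins.

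Transcripts of the 93 members were concentrated in few genes. The 5 highest members in WT islets, Kcnk16, Kcnip1, Kcnk1, Kcnk3 and Kcnmb2, made up 48.3% of the summed WT RPKM of all members, and the 15 highest made up 76.4%. The mean of the 12 animals reached 1 RPKM for 35 members and 5 RPKM for 13. The median over all 93 members was 0.681 RPKM. It was 2.19 RPKM over all transcripts tested, which leave out those with a mean under 0.1 RPKM. The table listed 61 members above 0 in every animal and 0 members at 0 in every animal. Of the 93, 34 were marked as low-read because their mean was under 10 approximate reads per library, and their values are given as weak evidence. At that line Kcnd2 had 9.7 reads and Kcna1 10.0 after rounding, both marked, whereas Kcnn1 with 12.2 was not. The test covered the 90 members with a mean of at least 0.1 RPKM, and Kcne1l, Kcnj14 and Kcnk15 did not reach it.

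The libraries differed in depth and in cell content. The depth estimated from the RPKM values ran from 2190000 to 9556000 reads. This is below the number of reads that the study's text gives for its samples, so all read numbers and the low-read mark rest on the estimate. Wfs1 itself was at 33.94, 27.37, 24.85 and 28.43 RPKM in WT, 15.03, 4.69, 16.43 and 8.16 RPKM in Wfs1HZ, and 5.08, 6.61, 3.46 and 2.45 RPKM in Wfs1KO islets, counted over exons that include those the allele keeps (adjusted p = 0.04 for Wfs1KO against WT by limma with Benjamini-Hochberg adjustment). The 4.69 RPKM of the library labelled Wfs1HZ replicate 2 lay within the range of the Wfs1KO animals. That library had the lowest depth and a median of 3.37 RPKM over all transcripts, against 0.75 to 1.73 in the other 11. It was the highest of the 12 for 52 of the 93 members (55.9%), a share set beside 46.9% of all transcripts tested. By level, 39 of 58 members under 1 RPKM peaked there, 11 of 22 at 1 to 5 RPKM, and 2 of the 13 at 5 RPKM or more. The share of all transcripts at each level was not counted. The library labelled Wfs1HZ replicate 4 was the lowest for 31 members, and its median over all transcripts, 0.75 RPKM, was also the lowest. A member at 0 in several libraries was counted only for the first of them in the order WT, Wfs1HZ, Wfs1KO. The share of all transcripts lowest in that library was not counted.

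Islet identity was checked with marker genes. The 9 endocrine markers summed to 166110 to 260579 RPKM in WT, 149586 to 227877 in Wfs1HZ and 96805 to 262974 in Wfs1KO islets, and Ins1, Ins2, Gcg, Sst and Ppy were high in all animals. Pdx1 was at 4.97 to 21.31 RPKM over all animals. Slc2a2 was at 3.37 to 11.69 RPKM in WT, 5.71 to 15.63 in Wfs1HZ and 2.5 to 4.34 in Wfs1KO islets. The sum hides the hormone mix, since Ins2 alone ran from 6423 to 76687 RPKM. In Wfs1KO replicate 4 Gcg gave 217165 of the 262974 RPKM. The 9 listed markers of acinar cells, the enzyme-secreting cells around the islets, summed to 51734 to 114187 RPKM in WT, 8595 to 297336 in Wfs1HZ and 8158 to 267584 in Wfs1KO islets. The highest acinar sums were those of Wfs1HZ replicate 4 and Wfs1KO replicate 3, the animals with the lowest summed Kcn level (145.05 and 162.33 RPKM). The lowest were those of the library labelled Wfs1HZ replicate 2 and of Wfs1KO replicate 4, which had the highest summed Kcn level (313.7 and 280.37 RPKM). The stromal and mural list of 8 genes reached 535.5 RPKM in the library labelled Wfs1HZ replicate 2 against 30.5 to 209.8 in the others. The endothelial list of 6 genes summed to 22.2, 49.5, 39.2 and 19.1 RPKM in WT, 92.9, 80.2, 47.3 and 19.4 in Wfs1HZ, and 54.2, 56.3, 55.5 and 64.1 in Wfs1KO islets, so that every Wfs1KO animal was above every WT animal. Of the single endothelial genes, Cdh5 and Vwf separated Wfs1KO from WT animals, whereas Kdr, Plvap, Esam and Pecam1 overlapped. None of the lists had a marker at 0 in all animals, and the part of cell content in the results was not tested. In whole islets fewer cells of a type and less RNA per cell cannot be told apart.

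**Figure D1:**
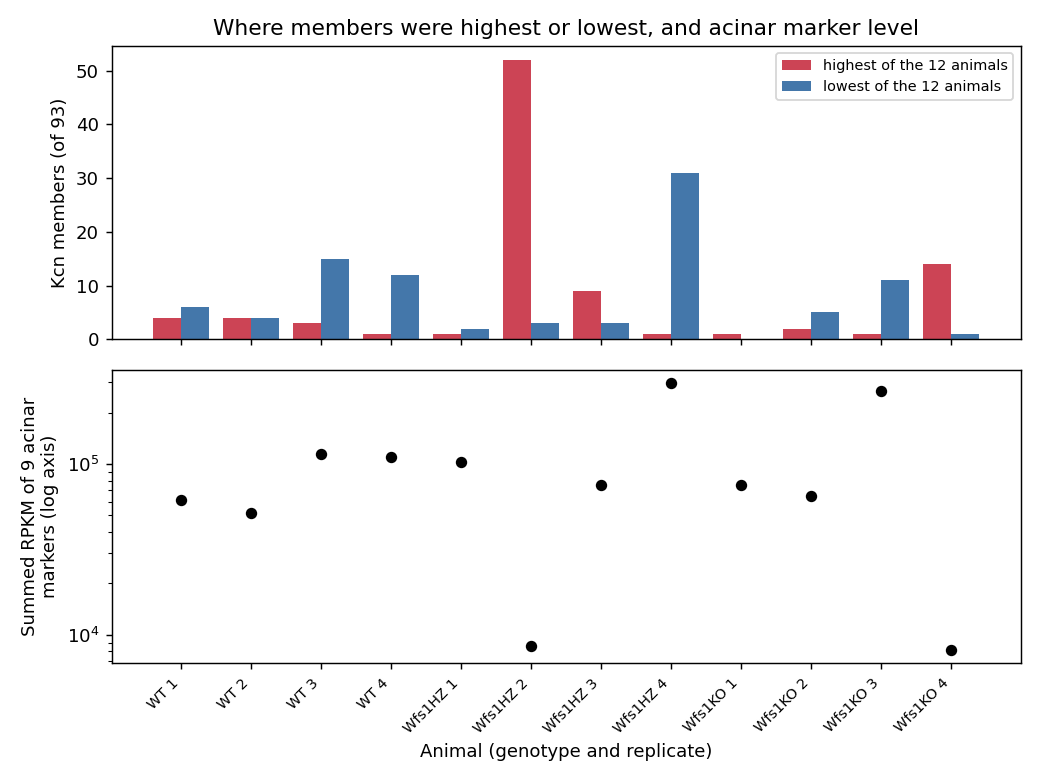
The upper panel counts, for each animal, the Kcn members (of 93) with their highest or lowest value of the 12 animals there, and the lower panel gives the summed RPKM of 9 acinar markers on a log axis. The library labelled Wfs1HZ replicate 2 holds the highest value of 52 members, Wfs1HZ replicate 4 holds the lowest of 31, and the acinar sum runs from 8158 to 297336 RPKM.

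Among the tandem pore domain channels (Kcnk), which carry leak current, 4 of 14 genes had a mean of at least 1 RPKM and 8 were low-read. This family had the largest summed level of the 6 channel classes, 73.8 ± 14.3 RPKM in WT, 65.3 ± 18.1 in Wfs1HZ and 73.9 ± 25.5 in Wfs1KO islets (SD, n = 4 each). Kcnk16 encodes an islet-enriched leak channel opened by alkaline pH. It was at 50.64, 35.47, 29.55 and 24.98 RPKM in WT, 21.17, 13.94, 43.76 and 19.86 in Wfs1HZ, and 29.07, 20.82, 12.37 and 45.44 in Wfs1KO islets. The 3 groups overlapped, and the log2 fold change of Wfs1KO against WT was -0.49 (SE 0.39, adjusted p = 0.927 by limma, exact two-sided permutation p = 0.343). Kcnk16 lies on mouse chromosome 14 at chr14:20261376-20269199 on the reverse strand (mm10), and Kcnk5 lies 79.6 kb away on the same strand.

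The promoter of Kcnk16 is shown because it is the highest member in WT islets, beside those of Kcns3 and Kcnj12, whose differences between Wfs1KO and WT had the lowest p-values of the members. Sequences are those of RefSeq (GRCm38.p6), 250 bases before to 50 after a transcript start, in the gene's own direction, and 69 of the 93 members had at least 1 window in that table. Capitals mark the GC box GGGCGG on either strand.
Kcnk16, chr14:20269220-20269519, reverse strand: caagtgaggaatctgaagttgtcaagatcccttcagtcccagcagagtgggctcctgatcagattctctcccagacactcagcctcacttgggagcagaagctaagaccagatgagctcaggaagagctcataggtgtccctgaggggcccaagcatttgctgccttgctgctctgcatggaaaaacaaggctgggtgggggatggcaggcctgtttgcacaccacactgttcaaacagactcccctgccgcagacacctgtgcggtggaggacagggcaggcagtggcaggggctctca
Kcnj12, chr11:61065554-61065853, forward strand: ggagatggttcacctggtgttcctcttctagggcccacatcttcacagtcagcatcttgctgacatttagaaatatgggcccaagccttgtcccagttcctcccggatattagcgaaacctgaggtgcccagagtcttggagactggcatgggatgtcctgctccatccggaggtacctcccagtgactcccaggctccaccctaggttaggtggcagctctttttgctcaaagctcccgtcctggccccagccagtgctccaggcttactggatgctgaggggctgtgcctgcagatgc
Kcns3 window 1, chr12:11150324-11150623, reverse strand: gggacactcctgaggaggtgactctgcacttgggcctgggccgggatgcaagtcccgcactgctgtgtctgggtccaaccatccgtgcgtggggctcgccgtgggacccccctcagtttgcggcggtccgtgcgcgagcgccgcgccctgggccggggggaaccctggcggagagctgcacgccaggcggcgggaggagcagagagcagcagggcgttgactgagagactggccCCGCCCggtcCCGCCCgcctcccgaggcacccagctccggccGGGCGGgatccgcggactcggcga
Kcns3 window 2, chr12:11150793-11151092, reverse strand: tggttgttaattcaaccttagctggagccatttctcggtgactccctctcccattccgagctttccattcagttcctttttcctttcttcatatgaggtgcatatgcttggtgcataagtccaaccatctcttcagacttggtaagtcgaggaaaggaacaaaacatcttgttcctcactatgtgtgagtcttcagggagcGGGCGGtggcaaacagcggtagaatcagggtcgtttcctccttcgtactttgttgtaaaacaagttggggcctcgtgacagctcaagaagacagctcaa
The first Kcns3 window held 74.0% G and C, 32 CG pairs and 3 GC boxes, none overlapping another. The second held 47.0%, 9 CG pairs and 1 GC box. Kcnj12 and Kcnk16 held 57.0% each with 4 and 2 CG pairs and no GC box. The GC box was present in 47.9% of the 94 member windows and in 35.7% of all 32851 windows. The other motifs searched on both strands were TATAAA (13.6% of all windows), CCAAT (37.4%), TGACGTCA (1.79%), the ER stress response element, CCAAT and CCACG with any 9 bases between them (0.12%, with its CCAAT also counted as the shorter motif) and TAATTA (5.29%), and the 4 windows printed held 0 matches to any of them. A match is a run of letters in the window and was not measured as a bound site.

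Kcnk1 encodes a weakly rectifying leak channel and was the steadiest of the 3 highest members. It was at 27.51, 22.07, 24.05 and 26.35 RPKM in WT, 22.39, 39.57, 21.23 and 12.68 in Wfs1HZ, and 34.04, 29.72, 19.80 and 36.58 in Wfs1KO islets. The groups overlapped, and the lowest value was in Wfs1HZ replicate 4. Kcnk3, an acid-sensitive leak channel, had 11.0 ± 6.63 RPKM in WT, 10.3 ± 5.11 in Wfs1HZ and 12.7 ± 4.84 in Wfs1KO islets (SD, n = 4 each), and an exon of it overlaps Gm9899 on the other strand, so its reads cannot be divided here.

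Kcnk5 encodes an alkaline-activated channel of cell volume control, and its gene lies at chr14:20140057-20181809. Its level was 0.64, 0.66, 0.40 and 0.69 RPKM in WT, 2.11, 3.90, 1.00 and 0.82 in Wfs1HZ, and 1.75, 1.25, 1.10 and 1.34 in Wfs1KO islets. Every Wfs1HZ and every Wfs1KO animal was above every WT animal. The log2 fold change was 1.07 for Wfs1KO against WT (SE 0.36, adjusted p = 0.835 by limma) and 1.33 for Wfs1HZ against WT (SE 0.60, adjusted p = 1 by limma), each with an exact two-sided permutation p of 0.0286, the smallest that 4 animals against 4 allow. Neither difference passed the adjustment, and both comparisons use the same WT animals. These values stand for 3.9 to 20.0 reads per library in WT and 14.9 to 56.7 in Wfs1KO islets.

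**Figure D2:**
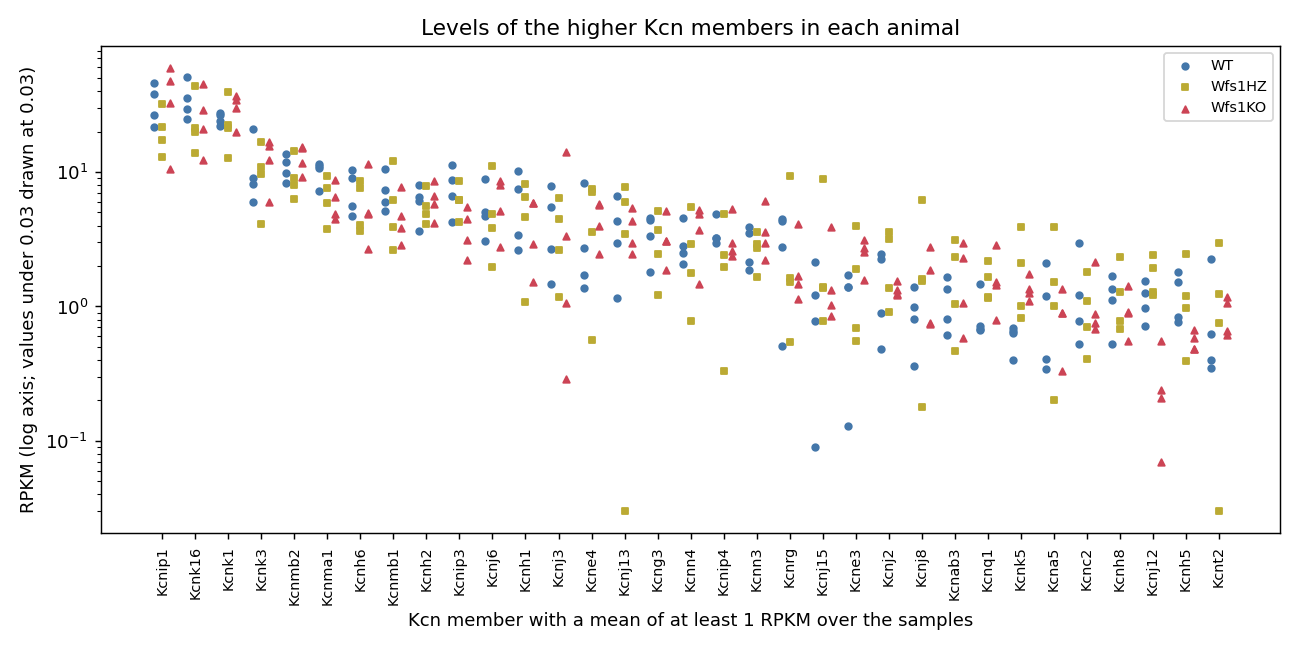
RPKM on a log axis of 33 of the 35 Kcn members with a mean of at least 1 RPKM, ordered by mean, with 1 point for each animal and a marker for each genotype. The groups overlap for most members. Kcnip1, Kcnk16 and Kcnk1 have the highest means, though some of their points lie among those of other members.

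The pore subunits of voltage-gated channels were 30 genes, of which 10 had a mean of at least 1 RPKM and 7 were low-read. Their summed level was 45.8 ± 5.72 RPKM in WT, 47.9 ± 16.4 in Wfs1HZ and 41.6 ± 13.2 in Wfs1KO islets (SD, n = 4 each). Kcnb2 encodes a delayed rectifier. It had 1.34, 0.67, 1.09 and 0.82 RPKM in WT, 1.16, 2.47, 1.09 and 0.15 in Wfs1HZ, and 0.58, 0.33, 0.16 and 0.51 in Wfs1KO islets. All 4 Wfs1KO animals were below all WT animals, and Wfs1HZ animals overlapped both. Against WT the log2 fold change was -1.18 (SE 0.46, adjusted p = 0.84 by limma, exact two-sided permutation p = 0.0286).

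The Kcnh family was the best represented of the voltage-gated pore families, with 5 of 8 genes at a mean of at least 1 RPKM and a summed level of 22.7 ± 4.69 RPKM in WT islets (SD, n = 4). Kcnh6 and Kcnh2 encode channels of the ERG type, which shape repolarisation, and Kcnh1 and Kcnh5 belong to the EAG type. Kcnh6 had 7.44 ± 2.70, 5.96 ± 2.48 and 6.01 ± 3.84 RPKM in WT, Wfs1HZ and Wfs1KO islets, and Kcnh2 had 6.04 ± 1.79, 5.61 ± 1.61 and 6.28 ± 1.79 (SD, n = 4 each). Kcnh5 was at 1.81, 0.77, 1.51 and 0.84 RPKM in WT, 0.97, 2.45, 1.20 and 0.39 in Wfs1HZ, and 0.48, 0.48, 0.58 and 0.67 in Wfs1KO islets. The Wfs1KO animals lay in a narrow band just below the lowest WT animal, with a log2 fold change of -0.96 (SE 0.41, adjusted p = 0.877 by limma, exact two-sided permutation p = 0.0286). The Kcnh5 values stand for 17.8 to 64.2 reads per library in WT and 8.9 to 18.9 in Wfs1KO islets, so counting error is large in Wfs1KO.

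Other voltage-gated families were lower. Kcnq1 had 0.88 ± 0.39 RPKM in WT, 1.54 ± 0.48 in Wfs1HZ and 1.65 ± 0.86 in Wfs1KO islets, with groups that overlapped and an exon shared with Kcnq1ot1 on the other strand. Kcna5 was the highest of the Kcna genes with a mean of 1.18 RPKM over the 12 animals. Kcnd3 was the highest of the Kcnd genes, whose channels carry A-type current, by its mean of 0.97 RPKM over the 12 animals. That mean includes 4.19 RPKM in the library labelled Wfs1HZ replicate 2. In WT islets Kcnd1 was higher, with a mean of 0.975 RPKM against 0.53 for Kcnd3.

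The silent subunits were 10 genes, of which 7 were low-read and only Kcng3 exceeded a mean of 1 RPKM. Kcng3 had 3.52 ± 1.25 RPKM in WT, 3.12 ± 1.67 in Wfs1HZ and 3.28 ± 1.33 in Wfs1KO islets (SD, n = 4 each). The summed silent class was at 5.12 ± 0.78, 7.32 ± 3.66 and 7.08 ± 1.61 RPKM. Kcnv1 was at 0.60 ± 0.49, 1.27 ± 1.44 and 0.87 ± 0.49 RPKM, and Kcnf1 was low-read.

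Kcns3 also encodes a silent subunit and had the lowest p-value of all members in any comparison. The gene lies at chr12:11090202-11151056 on the reverse strand. In WT islets it was listed at 0 in 1 animal and was at 0.14, 0.22 and 0.10 RPKM in the others. In Wfs1HZ islets it was at 0.31, 2.95, 0.22 and 0.06 RPKM, the second being the library labelled Wfs1HZ replicate 2. In Wfs1KO islets it was at 2.37, 2.21, 0.84 and 0.98 RPKM, so that no Wfs1KO animal overlapped a WT animal. These values stand for 0 to 3.7 reads per WT library and 9.4 to 66.4 reads per Wfs1KO library. The log2 fold change of Wfs1KO against WT was 2.97 (SE 0.54, exact two-sided permutation p = 0.0286), and the adjusted p was 0.402 by limma with Benjamini-Hochberg adjustment over all transcripts, so the difference did not pass. Since 1 WT library is at 0, the size of this change depends on the pseudocount and lay between 1.17 and 4.21 over the alternatives. The authors' own edgeR test, not repeated here, listed Kcns3 as higher in Wfs1KO than in WT at an FDR under 0.05. Whether Kcns3 passed thus differed with the test. Against Wfs1HZ the log2 fold change was 1.62 (SE 0.91, adjusted p = 1 by limma), and 2.49 without the library labelled Wfs1HZ replicate 2 (adjusted p = 0.807 by limma).

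**Figure D3:**
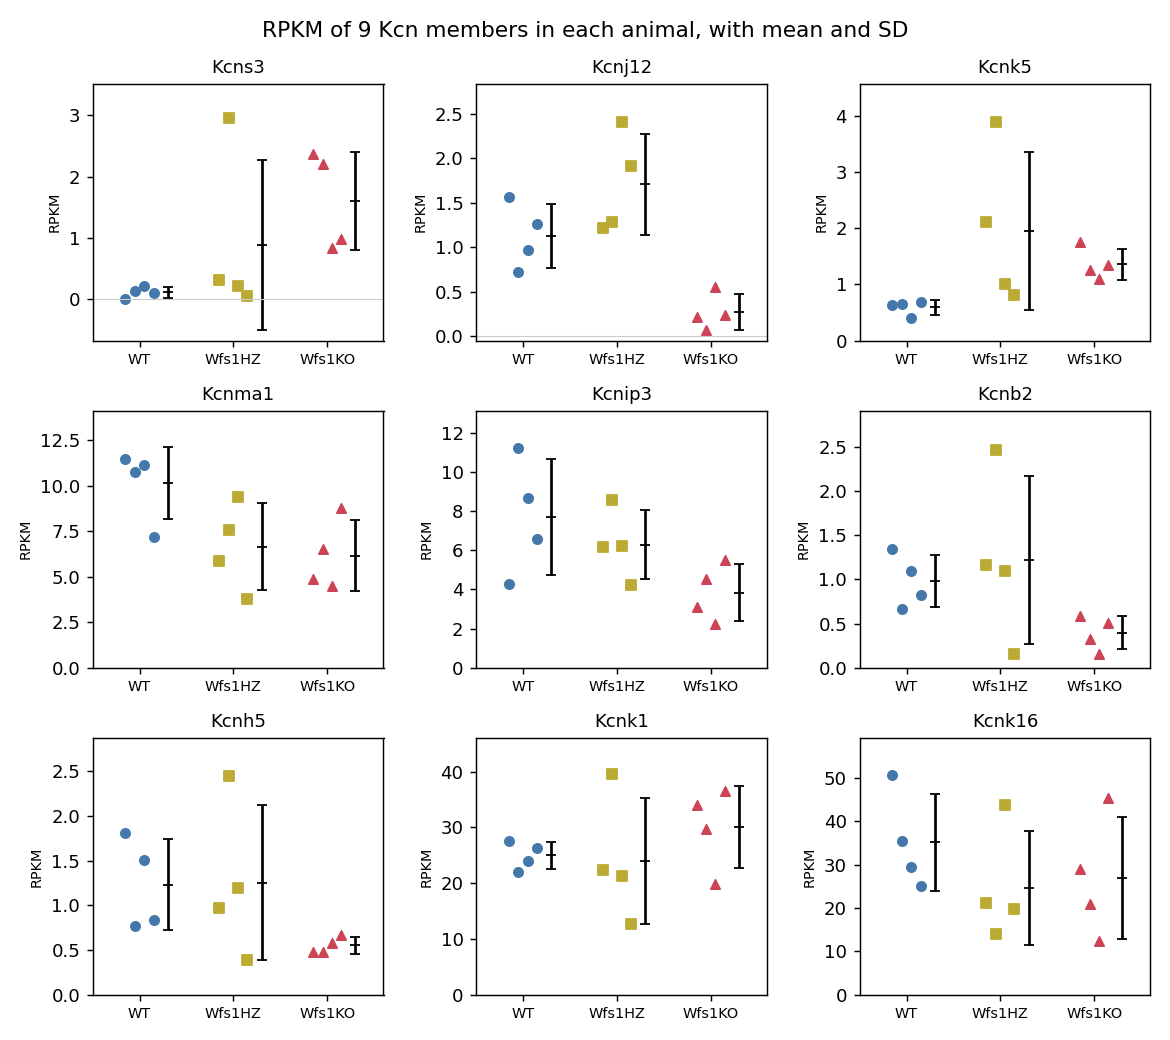
RPKM of 9 Kcn members in each animal, with 4 points for each genotype and the mean with 1 SD beside them. The Wfs1KO points of Kcns3 and Kcnk5 lie above all WT points, those of Kcnj12, Kcnb2 and Kcnh5 lie below them, and the groups overlap for Kcnma1, Kcnip3, Kcnk1 and Kcnk16.

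Accessory proteins of voltage-gated channels were 13 genes. Kcnip1, a calcium-binding partner of Kcnd channels, was the highest member by the mean over the 12 animals at 30.4 RPKM. It was at 45.56, 26.46, 21.46 and 37.85 RPKM in WT, 17.42, 12.92, 21.45 and 31.87 in Wfs1HZ, and 47.59, 59.24, 32.66 and 10.49 in Wfs1KO islets. The 3 Kcnd pore genes together had 1.74 ± 1.12 RPKM in WT islets (SD, n = 4), below the 44.5 ± 8.77 RPKM of the 4 Kcnip genes. Kcnip3, which also acts as a calcium-dependent repressor of transcription, was at 4.28, 11.22, 8.66 and 6.59 RPKM in WT, 6.16, 8.55, 6.24 and 4.23 in Wfs1HZ, and 3.11, 4.51, 2.22 and 5.52 in Wfs1KO islets. The Wfs1KO values overlapped the lowest WT animal, and the log2 fold change was -0.98 (SE 0.37, adjusted p = 0.84 by limma, exact two-sided permutation p = 0.0857). Kcne4, a single-pass accessory protein, had 3.52 ± 3.23, 4.71 ± 3.28 and 4.48 ± 1.59 RPKM in WT, Wfs1HZ and Wfs1KO islets (SD, n = 4 each). Kcnab3, the highest of the cytoplasmic beta subunits, had 1.11 ± 0.485, 1.73 ± 1.20 and 1.72 ± 1.09 RPKM, and the regulator Kcnrg had 3.01 ± 1.83, 3.27 ± 4.10 and 2.11 ± 1.37 RPKM.

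Calcium-activated and sodium-activated channels with their accessory subunits were 12 genes. Kcnma1, the pore of the large-conductance calcium-activated channel, was at 11.48, 10.76, 11.15 and 7.20 RPKM in WT, 5.84, 7.58, 9.36 and 3.77 in Wfs1HZ, and 4.86, 6.54, 4.47 and 8.79 in Wfs1KO islets. Of the Wfs1KO animals 3 were below every WT animal, and the fourth was above only WT replicate 4. Against WT the log2 fold change was -0.74 (SE 0.26, adjusted p = 0.835 by limma, exact two-sided permutation p = 0.0571). For Wfs1HZ against WT it was -0.66 (SE 0.31, adjusted p = 1 by limma). Its accessory subunit Kcnmb2 had 10.9 ± 2.32, 9.43 ± 3.44 and 12.8 ± 2.98 RPKM in WT, Wfs1HZ and Wfs1KO islets, and Kcnmb1 had 7.24 ± 2.38, 6.19 ± 4.17 and 4.80 ± 2.12 (SD, n = 4 each). Kcnmb1 lies within the Kcnip1 gene on chromosome 11 on the opposite strand, and no exons of the pair overlap. Kcnn4, the intermediate-conductance channel, had 2.98 ± 1.07, 2.75 ± 2.05 and 3.82 ± 1.68 RPKM. The sodium-activated Kcnt2 had 0.905 ± 0.904, 1.25 ± 1.27 and 0.88 ± 0.287 RPKM, and an exon of it overlaps 4930590L20Rik on the other strand.

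The inward rectifiers were 14 genes, of which 7 had a mean of at least 1 RPKM. The G protein-gated subunits Kcnj6 and Kcnj3 had means of 5.65 and 4.24 RPKM over the 12 animals, and their partner Kcnj5 had 0.67 RPKM. Kcnj3 varied widely, at 2.69, 7.86, 5.47 and 1.48 RPKM in WT, 4.46, 6.46, 2.65 and 1.18 in Wfs1HZ, and 3.33, 1.06, 0.29 and 14 in Wfs1KO islets. The widest spread was among Wfs1KO animals, where the lowest value came from the animal with the highest acinar sum of that group.

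Kcnj12 encodes a strong inward rectifier, and its gene lies at chr11:61022564-61071131, with the printed window inside it. It was at 1.56, 0.72, 0.97 and 1.26 RPKM in WT, 1.22, 1.28, 2.41 and 1.92 in Wfs1HZ, and 0.21, 0.07, 0.55 and 0.24 in Wfs1KO islets. All 4 Wfs1KO values lay under those of the other 8 animals. Its log2 fold change was -1.85 against WT (SE 0.51, adjusted p = 0.835 by limma) and -2.41 against Wfs1HZ (SE 0.63, adjusted p = 1 by limma), each with an exact two-sided permutation p of 0.0286. The values stand for 7.0 to 33.6 reads per library in WT, 6.9 to 43.6 in Wfs1HZ and 1.1 to 10.9 in Wfs1KO islets, so counting error is large in Wfs1KO. The related strong rectifier Kcnj2 had 1.52 ± 0.98, 2.26 ± 1.31 and 1.33 ± 0.16 RPKM in WT, Wfs1HZ and Wfs1KO islets (SD, n = 4 each).

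**Figure D4:**
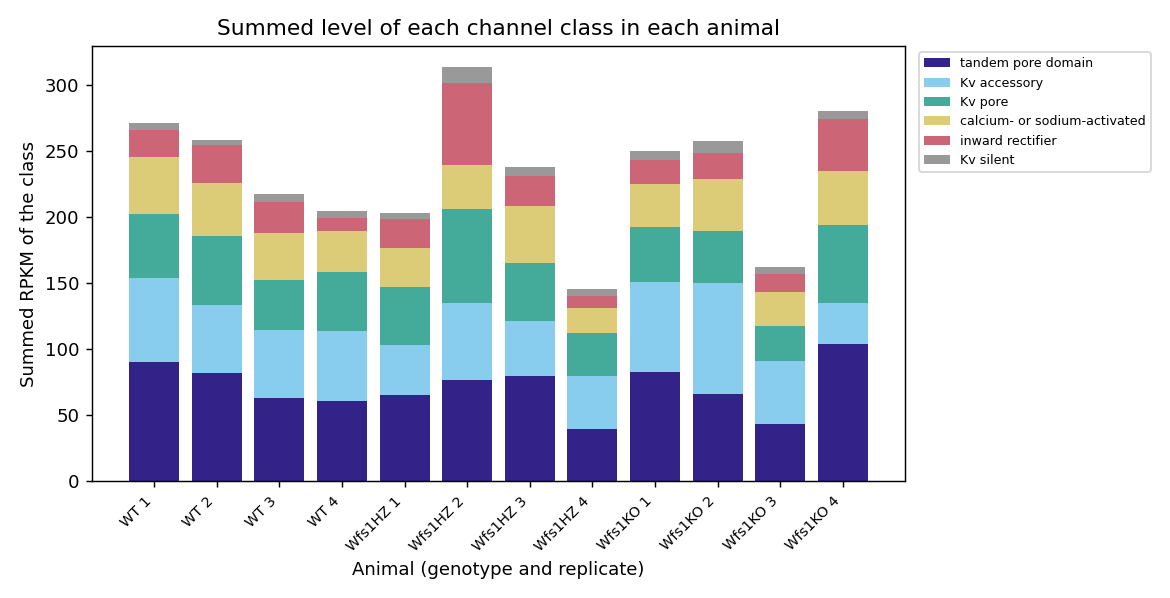
Summed RPKM of 6 channel classes stacked for each animal, with the bar height giving the sum over all 93 members. The sum runs from 145.05 RPKM in Wfs1HZ replicate 4 to 313.7 RPKM in the library labelled Wfs1HZ replicate 2, whose inward rectifiers sum to 61.68 RPKM.

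Across genotypes the summed level of the 93 members was 238 ± 31.9 RPKM in WT, 225 ± 70.5 in Wfs1HZ and 238 ± 51.8 in Wfs1KO islets (SD, n = 4 each). Between Wfs1KO and WT islets 0 of the 90 members tested reached an FDR under 0.05 or under 0.2 by limma, against 0.0138% and 0.0461% of all transcripts. An unadjusted p under 0.05 was reached by 7 members (7.78%) beside 5.64% of all transcripts tested. Kcns3 and Kcnk5 were higher in Wfs1KO, beside 3.91% of all transcripts in that direction, and Kcnj12, Kcnma1, Kcnip3, Kcnb2 and Kcnh5 were lower, beside 1.74%. After median-of-ratios scaling these background shares were 4.1% and 3.15%, with 3 members higher and 5 lower, and after quantile normalization they were 3.39% and 3.79%, with 3 higher and 8 lower. Groups did not overlap for 5 members, beside 2.74% of all transcripts, with Kcns3 and Kcnk5 higher in Wfs1KO (beside 1.75%) and Kcnj12, Kcnb2 and Kcnh5 lower (beside 0.991%). The median log2 fold change was 0.14 over members and 0.07 over all transcripts, and -0.08 over members after quantile normalization. The summed endothelial markers also separated these groups, at 54.2 to 64.1 RPKM in Wfs1KO and 19.1 to 49.5 RPKM in WT islets. Among the single markers Cdh5 did so, at 25.65 to 31.19 RPKM in Wfs1KO and 7.61 to 17.91 in WT islets, as did Vwf at a low level. Kdr, Plvap, Esam and Pecam1 overlapped. The part of endothelial content in these differences was not tested. The count of 7 became 4 without Wfs1KO replicate 1 (beside 4.23% of all transcripts) or WT replicate 1 (beside 5.2%) and 11 without Wfs1KO replicate 4 (beside 8.62%). The balance of directions also turned with single animals. Without WT replicate 3 there were 6 members higher and 1 lower, beside 3.81% and 1.54% of all transcripts, and 3 of the 7 were kept. Without Wfs1KO replicate 3 there were 4 higher and 1 lower, beside 5.24% and 1.29%, and 3 of the 7 were kept. The log2 fold change of Kcnk16, -0.49, lay between -0.79 without Wfs1KO replicate 4 and -0.17 without Wfs1KO replicate 3. Kcns3 and Kcnj12 kept an unadjusted p under 0.05 with each animal left out, whereas Kcnma1 lost it without Wfs1KO replicate 1 or 3 or WT replicate 1, 2 or 3. Kcnip3 lost it without Wfs1KO replicate 1 or 3 or WT replicate 2 or 3, Kcnk5 without Wfs1KO replicate 1, Kcnb2 without Wfs1KO replicate 2 or 3 or WT replicate 1 or 3, and Kcnh5 without Wfs1KO replicate 1, 2 or 3 or WT replicate 1 or 3.

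**Figure D5:**
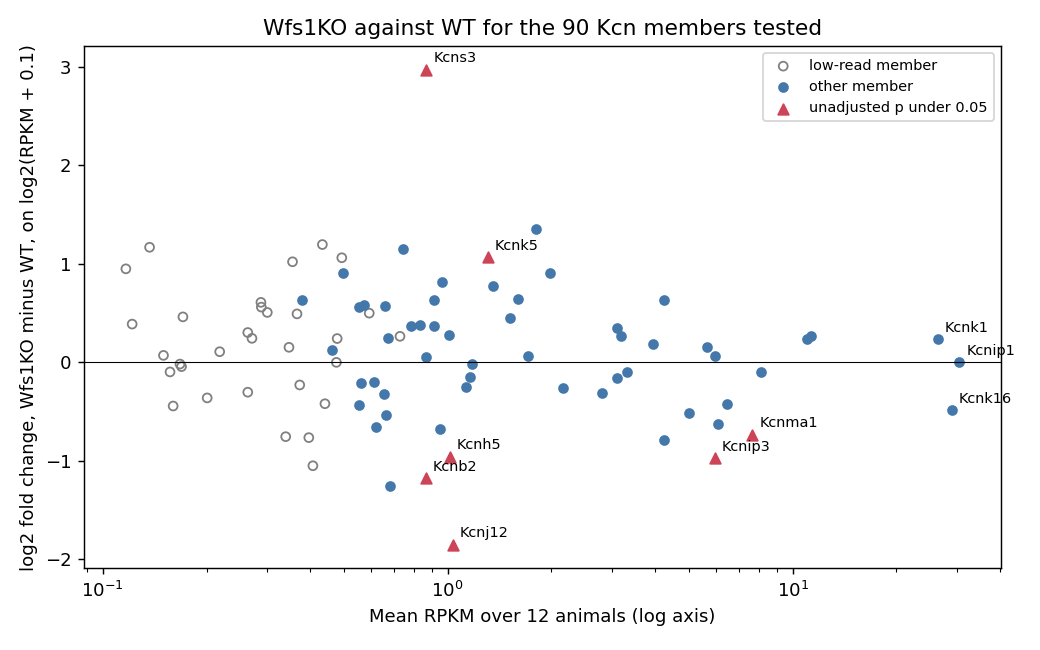
The log2 fold change of Wfs1KO against WT, on log2(RPKM + 0.1), for the 90 members tested against their mean RPKM on a log axis, with low-read members as open circles and the 7 members at an unadjusted p under 0.05 as triangles. Kcns3 at 2.97 and Kcnj12 at -1.85 lie farthest from 0, and none of the 90 passed an FDR of 0.2.

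Between Wfs1KO and Wfs1HZ islets 0 of the 90 members reached an FDR under 0.2 by limma, as did 0.0% of all transcripts. An unadjusted p under 0.05 was reached by 3 members, beside 2.45% of all transcripts tested. These were Kcnj12 and the low-read genes Kcnk13 and Kcns1, the low-read pair being named after its values were seen. Only Kcns1 was higher in Wfs1KO, beside 1.7% of all transcripts, and the others were lower, beside 0.756%. With median-of-ratios scaling 1 member was higher and 4 lower, beside 1.82% and 1.84% of all transcripts, and with quantile normalization 2 were higher and 3 lower, beside 2.25% and 2.01%. Kcnk13, a leak channel, was at 0.30, 0.87, 0.43 and 0.63 RPKM in Wfs1HZ and 0.17, 0.00, 0.04 and 0.10 in Wfs1KO islets, and Kcns1, a silent subunit, was listed at 0 in 3 of 4 Wfs1HZ animals. Groups did not overlap for 3 members, Kcnj12 and Kcnk13 among them, beside 1.43% of all transcripts. All 3 were lower in Wfs1KO, beside 0.502% of all transcripts, and 0 members were higher, beside 0.926%. The median log2 fold change was -0.08 over members and 0.04 over all transcripts, and 0.007 over members after quantile normalization. The count of 3 became 8 without the library labelled Wfs1HZ replicate 2, beside 6.03% of all transcripts. Of those 8, 6 were higher in Wfs1KO and 2 lower, beside 5.18% and 0.843%. It became 5 without Wfs1KO replicate 1 (beside 1.57%), Wfs1KO replicate 4 (3.6%), Wfs1HZ replicate 3 (2.53%) or Wfs1HZ replicate 4 (3.34%), and 2 without Wfs1KO replicate 3 (2.96%).

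Between Wfs1HZ and WT islets 0 members reached an FDR under 0.2 by limma, as did 0.0% of all transcripts. The low-read Kcnk13 was the only member at an unadjusted p under 0.05, beside 2.35% of all transcripts, and was named after its values were seen. It was higher in Wfs1HZ, beside 1.09%, and 0 members were lower, beside 1.27%. It was at 0.11, 0.46, 0.00 and 0.05 RPKM in WT islets and overlapped the Wfs1HZ values. Kcnk5 was the only member without overlap, beside 1.66% of all transcripts. It was higher in Wfs1HZ, beside 0.576%, and 0 members were lower, beside 1.08%. The median log2 fold change was 0.13 over members and 0.04 over all transcripts, and turned to -0.12 and -0.02 after quantile normalization. The low-read members had a median of 0.40 and the others -0.07. The count of 1 became 2 without the library labelled Wfs1HZ replicate 2 (beside 4.85% of all transcripts), 3 without Wfs1HZ replicate 3 (beside 2.83%), 4 without Wfs1HZ replicate 4 (beside 5.01%) and 0 without WT replicate 1 (beside 1.41%).

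Genes that work with these channels were described from a fixed list of 14, which holds the Dpp6 and Dpp10 partners of Kcnd channels, Amigo1 and the Vap proteins, which bind voltage-gated channels, leucine-rich repeat subunits of the Kcnma1 channel and the hyperpolarization-activated Hcn cation channels. Of the 13 tested, 0 had an unadjusted p under 0.05 in any of the 3 comparisons by limma. The lowest adjusted p was 0.879 by limma, for Dpp10 in Wfs1KO against WT. Amigo1, a cell-adhesion protein, had 11.0 ± 2.16, 11.6 ± 3.28 and 10.7 ± 2.99 RPKM in WT, Wfs1HZ and Wfs1KO islets (SD, n = 4 each). Dpp10 had 3.36 ± 1.97, 2.18 ± 1.23 and 1.61 ± 0.90 RPKM. Of the pacemaker genes Hcn3 was the highest, with 3.07 ± 0.79, 3.43 ± 1.04 and 4.08 ± 1.17 RPKM.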

How the data were processed

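Islet RNA of 12 mice was sequenced on a SOLiD instrument from 10 ng of total RNA with paired reads of 75 and 35 bp. The authors mapped reads to mm10 with LifeScope and deposited RPKM values, 1 column per animal. The tool that counted reads, its use of strand and its annotation are not given in the sources used here. RPKM are not counts, so the edgeR test of the authors was not repeated. Depth was estimated from low RPKM of short RNA genes, 95.7% to 100.0% of which were whole reads within 0.1, so reads behind a value are approximate. In the shallowest library 0.685 RPKM is the value of 3 reads for a 2 kb transcript, counting error alone.

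Each pair of genotypes was fitted on log2(RPKM + 0.1) with limma 3.58.1 (R 4.3.3), a variance trend and adjustment after Benjamini-Hochberg across the 21701 transcripts that averaged 0.1 RPKM or more. Fold changes on this scale understate changes of low genes. For single genes an exact permutation test, two-sided, was added, whose smallest p is 0.029. The p-values take animals as replicates. The fit was tested on simulated reads with the same dispersion (spread beyond counting error) for all transcripts. The simulation held no differences in cell content between animals, so it does not show how the fit handles them. Coordinates are from GENCODE M21, which uses the mm10 build, and promoters from RefSeq. Tables were made in Python 3.11.15 (pandas 2.3.3, numpy 2.4.6), permutation tests in scipy 1.17.1 and plots in matplotlib 3.10.9.

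Members and lists were chosen with earlier results of these data known. Genes named are the 15 highest members, the highest of each family, members not low-read at an unadjusted p under 0.05 (at most 10 per comparison), Kcns3 and a set of channels known from beta cells, with full statistics for Kcns3, Kcnk16 and the called members. Others were named after their values were seen. Alternatives were pseudocounts of 1 and 0.01, a minimum mean of 1 RPKM or no minimum, 2 other scalings, no variance trend, sample weights, all 12 samples in 1 fit, leaving out each animal, and a block for the replicate number. Some genes of the prefix are not reported here.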

Additional observations from a re-analysis of the deposited data

Results flagged for a closer look

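In the 31 named members each group of 4 animals was searched for an animal that stands apart from the other 3 on the log2(RPKM + 0.1) scale. Of 93 groups searched, 5 held one, and chance flags about 1 in 20 groups. Kcnd3 was high in the library labelled Wfs1HZ replicate 2 at 4.19 RPKM, against 0.11 to 0.23. Kcnk5 was low in WT replicate 3 at 0.4 RPKM, against 0.64 to 0.69. Kcnma1 was low in WT replicate 4 at 7.2 RPKM, against 10.76 to 11.48. Kcnq1 was high in WT replicate 2 at 1.47 RPKM, against 0.67 to 0.71. Kcnu1, a low-read gene known from sperm, was high in WT replicate 2 at 0.82 RPKM, against 0.48 to 0.52.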

How the results depend on the processing

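The number of members with an unadjusted p under 0.05 moved with the settings, as did the share of all transcripts, given in parentheses. For Wfs1KO against WT the 7 (5.64%) became 4 of 35 tested with a minimum mean of 1 RPKM (5.41%), 11 with quantile normalization (7.18%), 12 with sample weights (9.52%), 4 with all 12 samples in 1 fit (3.03%), and 4 to 11 with each animal left out. For Wfs1KO against Wfs1HZ the 3 (2.45%) became 1 with the minimum mean of 1 RPKM (2.56%) and 2 to 8 with each animal left out. The count was 5 with median-of-ratios scaling (3.66%), with quantile normalization (4.27%) and without a variance trend (2.47%). Sample weights gave 10 (10.3%), 6 of them higher and 4 lower, beside 7.31% and 3.03% of all transcripts. For Wfs1HZ against WT the 1 (2.35%) became 0 with a pseudocount of 1 (1.83%) or 0.01 (2.58%) or the minimum mean of 1 RPKM (2.16%), 3 with median-of-ratios scaling (4.13%), quantile normalization (4.62%) or sample weights (7.09%), 2 without a variance trend (2.36%) or with all 12 samples in 1 fit (2.84%), and 0 to 4 with each animal left out. At an FDR under 0.2 by limma, sample weights called 1 member in Wfs1KO against WT (Kcns3, adjusted p = 0.115, beside 0.124% of all transcripts) and 1 in Wfs1KO against Wfs1HZ (Kcnj12, adjusted p = 0.165, beside 0.194%). With each animal left out 0 members reached it in any comparison. The cause of these shifts was not tested, except that the minimum mean tests fewer genes. Animals with the same replicate number are different animals, and the correlations of their deviations lay between -0.28 and 0.34. Animals with different numbers were not compared in this way, so a batch or litter shared by number was not tested. With the replicate number as a block 6 (5.03%), 2 (1.82%) and 3 (3.94%) members had an unadjusted p under 0.05 in the same order of comparisons. In the first of these, the block gave 4 higher and 2 lower, beside 3.64% and 1.38% of all transcripts, and 4 of the 7 members were kept. Kcns3 and Kcnj12 kept direction and an unadjusted p under 0.05 in Wfs1KO against WT under every alternative that could be fitted. In the shallowest library 3 reads on a 2 kb transcript are 0.685 RPKM, so for a transcript of that length differences among lower values were not detectable there. For longer transcripts the same reads give a lower RPKM.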

Other observations

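The animals differed in hormone RNA, and some channels were ordered like it. Gcg, the glucagon transcript of alpha cells, was highest in Wfs1KO replicate 4 (217165 RPKM), WT replicate 2 (182240 RPKM) and the library labelled Wfs1HZ replicate 2 (155286 RPKM). Among the 15 highest members, Kcnj3 and Kcnj6, which assemble into a common G protein-gated channel, had their 3 highest values in these same 3 animals. A further 6 members shared 2 of the 3. These 3 animals also had the highest medians over all transcripts, at 1.73, 1.5 and 3.37 RPKM in the order given for Gcg. The share of all transcripts ordered in this way was not counted. Of the 15, 5 had 2 of their 3 lowest values among the 3 animals lowest in Ins2, and 0 had all 3. Kcnh1 was among these 5. It was lowest in the library labelled Wfs1HZ replicate 2 (1.08 RPKM) and in Wfs1KO replicate 4 (1.52 RPKM), which also had the lowest Ins2 values (6423 and 9199 RPKM). These orders were chosen after the values were seen, and all transcripts of a library share its depth and cell content.

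Of 9 pairs of members whose genes lie under 100 kb apart, the pairs with the highest levels were Kcnk5 and Kcnk16, with means of 1.30 and 28.9 RPKM over the 12 animals 79.6 kb apart, and Kcnip1 and Kcnmb1, with 30.4 and 6.07 RPKM in overlapping genes. The other 7 pairs lie between 11.9 and 68.0 kb apart at low levels, such as Kcna1 and Kcna6 with 0.48 and 0.56 RPKM and Kcnj5 and Kcnj1 with 0.67 and 0.59 RPKM, and the highest of their genes was Kcnj2 with a mean of 1.70 RPKM.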
